A study of Mus musculus with 6 samples.

Results

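The genes described here are 34 that encode the enzymes, transporters and regulators of glycolysis, gluconeogenesis, glycogen turnover, fructose entry and the pentose phosphate pathway. They were taken by symbol from a table of 24421 genes, chosen by function, and all 34 passed the filter on low counts, which left 12945 genes tested. The 6 RNA-seq libraries came from liver, 3 labelled Sesn3 KO (KO) and 3 wild type (WT), and the mice were C57BL/6 males at 4 months of age. Both groups had eaten the same diet for 4 weeks, with 40% of its energy from fat, 40% from carbohydrate and 20% from protein, to which sodium cholate (0.5%) and cholesterol (1.25%) had been added, so neither group shows these genes on an ordinary diet. The labels do not say how the Sesn3 allele was made or whether the mice were littermates. Sesn3 encodes sestrin 3, a stress-inducible regulator of mTORC1 and AMPK signalling.

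The liver takes up glucose, burns it through glycolysis or stores it as glycogen, and makes glucose again during fasting by gluconeogenesis. Opposed pairs of enzymes set the direction: phosphofructokinase against fructose bisphosphatase, and glycogen synthase against glycogen phosphorylase. Hepatocytes use their own forms of several of these enzymes (liver pyruvate kinase, the transporter GLUT2), while macrophages and other cells of the liver use the more widely expressed forms (pyruvate kinase M, GLUT1). Ketohexokinase brings fructose into the same pathway below its main control point, and the pentose phosphate pathway draws off glucose-6-phosphate to make NADPH and ribose.

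Sesn3, the targeted gene, had 18, 18 and 16 counts in the KO libraries. The WT libraries held 172, 200 and 195 (log2 fold change -3.84, SE 0.22, edgeR adjusted p = 0.00183). Library totals ran from 18882220 to 24098512 counts. Albumin was the most abundant gene in each library. In all, 7 hepatocyte markers summed to between 92431 and 113052 CPM in KO and between 89075 and 143830 CPM in WT. Most of that sum was albumin (76210 CPM in KO and 71749 CPM in WT on average). Of the 7, 0 were called, but 6 had negative log2 fold changes and 1 positive. Apoa1 (log2 -0.71) and Ttr (log2 -0.96) were the 2 of 7 at an unadjusted edgeR p under 0.05, and both were lower in each KO library than in each WT library. CPM, used throughout, is a gene's count relative to the size of its library after TMM scaling. The macrophage list summed to between 2601 and 3122 CPM in KO and between 999 and 2379 CPM in WT, with 4 of 10 genes called higher, and the stellate cell and fibroblast list to between 866 and 1153 CPM against 231 and 466 CPM, with 4 of 8 called higher. None of those 18 markers was at 0. Of all tested genes 3.36% were called higher (edgeR, adjusted p under 0.05). WT replicate 2 had the lowest macrophage sum of the 6 libraries and stood furthest from the other libraries (correlation of log CPM with WT replicate 1 of 0.948, against 0.978 between WT replicates 1 and 3).

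Of the 34 genes, 5 were called lower in KO and 0 were called higher. The 5 were Khk, ketohexokinase, Pfkfb3 and Pfkfb1, which encode bifunctional enzymes that make and break the activator of phosphofructokinase, Pygl, liver glycogen phosphorylase, and Mdh1, cytosolic malate dehydrogenase. That is 14.7% of the 34 genes, beside 3.58% of all tested genes called lower, 3.36% called higher and 6.94% called either way (edgeR, adjusted p under 0.05). At an unadjusted p under 0.05, 9 of the 34 were lower and 1 was higher (25.8% of all tested genes either way), and DESeq2 and limma-voom called 0 higher and 9 and 5 lower. DESeq2 called 8.2% of all genes lower and 7.11% higher. In 11 of the 34 genes each KO library lay below each WT library, and in 2 each lay above, or 32.4% and 5.88%, beside 16.6% and 16.9% of all tested genes. The median log2 fold change of the 34 was -0.24, with 24 negative and 10 positive values, against 0.00 over all tested genes. With library size as the only scaling the median of all genes moved up by 0.21, the median of the 34 became -0.03 against 0.21 for all genes, 3 of the 34 were called lower, and the split over all genes went from 435 higher and 463 lower to 707 and 258. Leaving out KO replicate 1 left 2 of the 34 called lower, KO replicate 2 left 1, KO replicate 3 left 3 and WT replicate 3 left 2, against 4 without WT replicate 1 or WT replicate 2. In whole-liver RNA, fewer cells of a type and less RNA per cell cannot be told apart. The labels list the 6 as separate samples but do not tie each to an animal, so each p-value rests on the spread among these libraries alone, which may be technical.

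**Figure D1:**
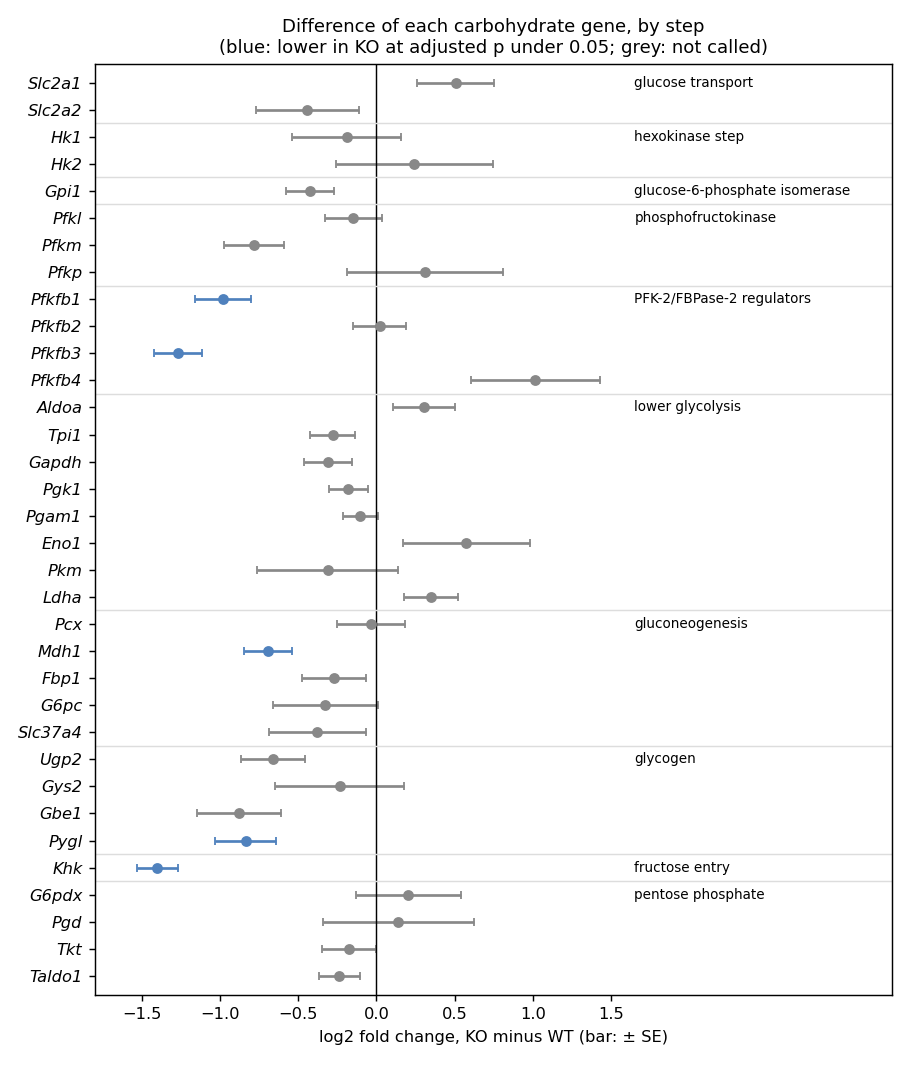
Log2 fold change (KO minus WT, horizontal axis) of each of the 34 genes in the order of the pathway steps, as a point with a bar of ± 1 SE, 3 libraries a group. The 5 genes called lower (blue) lie between -1.40 (Khk) and -0.69 (Mdh1), and the others (grey) lie on both sides of 0.

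Khk showed the largest difference of the 34. It was at 183, 173 and 192 CPM in KO replicates 1 to 3 and at 483, 509 and 455 CPM in WT replicates 1 to 3. Each library of one genotype lay close to the others, far from the other genotype. The level went from 482 ± 27.2 CPM in WT to 183 ± 9.22 CPM in KO (SD, n = 3 each), 2.64-fold lower (log2 -1.40, SE 0.13, edgeR adjusted p = 0.00421), and it passed without each library in turn, with an adjusted p of up to 0.039. The gene lies on chromosome 5 from 30921431 to 30931248 on the plus strand (mm10, GENCODE M21). Per length of exon, Khk was 5th of the 33 genes with a length in WT, at 268 CPM per kb, and 8th in KO, at 102 CPM per kb.

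Of the 4 genes for the bifunctional enzymes, Pfkfb3 and Pfkfb1 fell, and Pfkfb2 and Pfkfb4 did not pass. These enzymes carry a kinase that makes fructose-2,6-bisphosphate, the activator of phosphofructokinase and inhibitor of fructose bisphosphatase, and a phosphatase that removes it. Pfkfb1 is the form typical of liver and muscle, and Pfkfb3 an inducible form with high kinase activity. Pfkfb3 was at 10.9, 13.7 and 15 CPM in KO replicates 1 to 3 and at 28.9, 32.3 and 34.1 CPM in WT replicates 1 to 3. Pfkfb1 was at 13.5, 16.2 and 21.5 CPM in KO and at 33.9, 31.9 and 35.2 CPM in WT, in the same order of libraries. In both genes the highest KO library lay well under the lowest WT library. Pfkfb3 was 2.41-fold lower (log2 -1.27, SE 0.15, edgeR adjusted p = 0.00714) and missed the threshold only without KO replicate 2 (adjusted p = 0.0501). Pfkfb1 was 1.97-fold lower (log2 -0.98, SE 0.18, edgeR adjusted p = 0.0234) but did not pass when KO replicate 1, KO replicate 2 or WT replicate 3 was left out (adjusted p up to 0.108). Pfkfb4 went the other way without passing: 5.66, 4.21 and 4.61 CPM in KO against 2.98, 0.988 and 3.15 CPM in WT (log2 1.02, SE 0.41, edgeR adjusted p = 0.174). Pfkfb2, the form first known from heart, was level at 17.3 ± 1.53 CPM in KO and 17.1 ± 3.26 CPM in WT (SD, n = 3 each; log2 0.02, SE 0.17, edgeR adjusted p = 0.956).

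Summed per length, the 4 genes fell from 15.4 ± 0.569 CPM per kb in WT to 9.36 ± 1.38 CPM per kb in KO (SD, n = 3 each), a sum that was not tested. Pfkfb1 made up 54.3% ± 2.28 of the sum in WT and 45.0% ± 4.02 in KO, and Pfkfb3 27.3% ± 1.40 and 18.6% ± 1.34. The shares of Pfkfb2 were 15.3% ± 3.05 and 25.6% ± 1.62, and those of Pfkfb4 3.15% ± 1.58 and 10.8% ± 2.92 (SD, n = 3 each). The shares of Pfkfb2 and Pfkfb4 were thus larger in each KO library than in each WT library, while the level of Pfkfb2 itself overlapped between the genotypes.

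**Figure D2:**
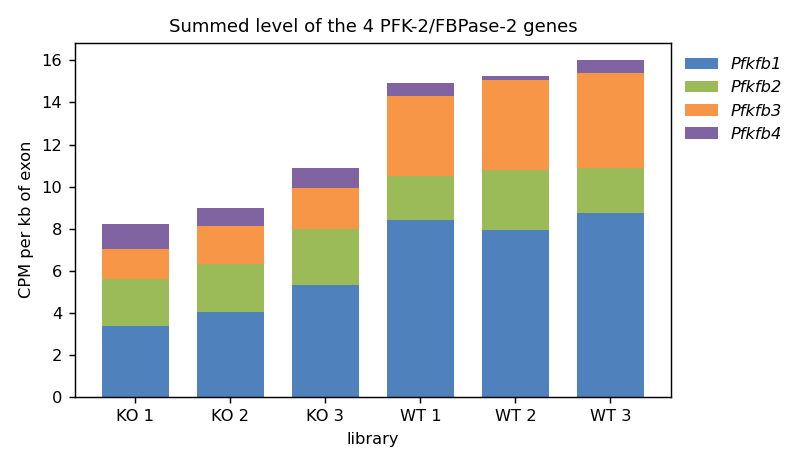
Stacked level of Pfkfb1, Pfkfb2, Pfkfb3 and Pfkfb4 in each library (vertical axis, CPM per kb of exon; 1 bar per library). The KO bars reach between 8.21 and 10.9 CPM per kb and the WT bars between 14.9 and 16.0, with smaller Pfkfb1 (blue) and Pfkfb3 (orange) parts in KO.

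Pygl and Mdh1 fell by less and held less firmly. Pygl was at 304, 285 and 392 CPM in KO replicates 1 to 3 and at 531, 699 and 524 CPM in WT replicates 1 to 3, 1.79-fold lower (log2 -0.84, SE 0.19, edgeR adjusted p = 0.0468). Mdh1 was at 478, 437 and 513 CPM in KO and at 794, 809.8 and 702 CPM in WT, 1.61-fold lower (log2 -0.69, SE 0.15, edgeR adjusted p = 0.0408). The groups did not overlap in either gene. Both missed the threshold whichever library was left out (adjusted p up to 0.177 for Pygl and 0.174 for Mdh1), and with library size only (0.0511 and 0.0718). Cytosolic malate dehydrogenase returns malate from mitochondria to oxaloacetate, the substrate of gluconeogenesis in the cytosol.

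**Figure D3:**
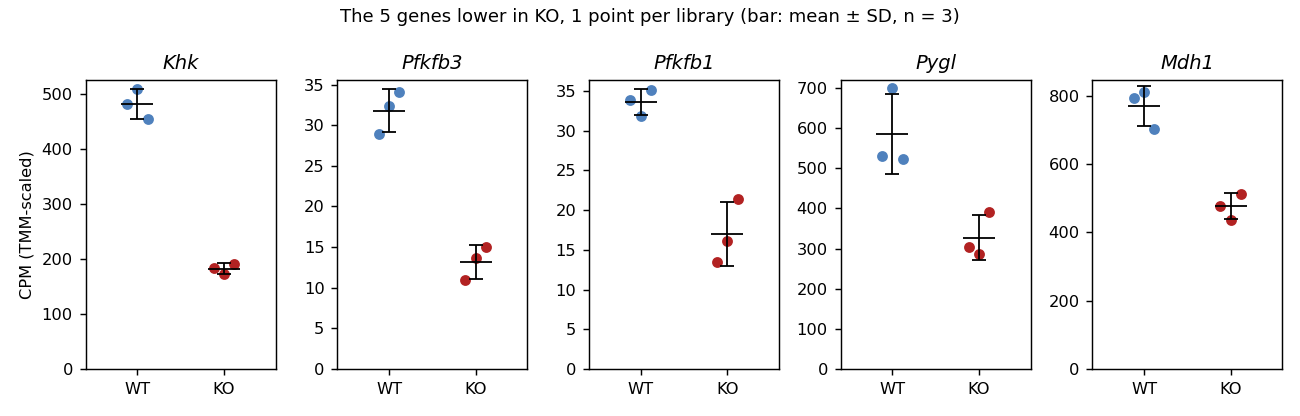
CPM of the 5 genes called lower in KO, 1 point per library, with the mean ± SD of each group (n = 3) as a bar, each axis starting at 0. No KO point reaches a WT point in any of the 5 panels.

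The 5 genes lie on 5 chromosomes: Pfkfb3 on chromosome 2 from 11471433 to 11554077, Pfkfb1 on X from 150588229 to 150643878, Pygl on chromosome 12 from 70190811 to 70231488 and Mdh1 on chromosome 11 from 21556787 to 21572367, beside Khk on chromosome 5. Of all 50-base words in their annotated transcripts, none of Khk's and between 0.234% and 0.727% of the other genes' also occur in transcripts of another gene, so reads of these 5 are little affected by near-identical copies. Their promoters are shown since all 5 genes were called lower, and whether the 5 vary together was not tested. Each is the 250 bases before a RefSeq start (build GRCm38.p6), 5′ to 3′ on the gene's strand, with ACGTG on either strand in capitals, which takes in the E-box CACGTG. Pfkfb3 has 2 such starts in the table and both are shown. Pfkfb1 has 4, of which the one next to the annotated 5′ end of the gene is shown. The Pygl and Mdh1 windows lie wholly inside the annotated gene, whose 5′ end is at 70231488 for Pygl and at 21572367 for Mdh1. The Khk, Pfkfb1 and outer Pfkfb3 windows reach partly into the gene, past 5′ ends at 30921431, 150588229 and 11554077.
Khk, chr5:30921309-30921558 (+): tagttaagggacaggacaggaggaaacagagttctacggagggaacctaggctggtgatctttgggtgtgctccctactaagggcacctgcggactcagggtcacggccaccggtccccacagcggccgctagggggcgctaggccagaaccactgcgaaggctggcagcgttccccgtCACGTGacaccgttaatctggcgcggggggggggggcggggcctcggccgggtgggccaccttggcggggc
Pfkfb3, start near the annotated 5′ end, chr2:11553930-11554179 (-): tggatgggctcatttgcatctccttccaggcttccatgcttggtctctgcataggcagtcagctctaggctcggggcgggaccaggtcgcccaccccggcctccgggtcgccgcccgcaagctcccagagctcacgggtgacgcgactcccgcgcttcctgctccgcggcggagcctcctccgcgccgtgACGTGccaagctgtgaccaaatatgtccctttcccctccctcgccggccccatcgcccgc
Pfkfb3, start within the gene, chr2:11502091-11502340 (-): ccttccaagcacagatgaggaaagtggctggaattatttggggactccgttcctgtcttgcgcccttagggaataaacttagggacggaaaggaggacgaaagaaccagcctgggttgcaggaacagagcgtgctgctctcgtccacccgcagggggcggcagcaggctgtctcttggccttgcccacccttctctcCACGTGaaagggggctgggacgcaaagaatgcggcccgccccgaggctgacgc
Pfkfb1, chrX:150587993-150588242 (+): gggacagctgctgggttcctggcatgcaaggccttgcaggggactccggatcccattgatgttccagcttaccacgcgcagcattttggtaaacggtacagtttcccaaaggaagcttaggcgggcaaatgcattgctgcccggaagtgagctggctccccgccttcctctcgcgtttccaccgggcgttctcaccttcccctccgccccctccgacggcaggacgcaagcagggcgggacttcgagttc
Pygl, chr12:70227684-70227933 (-): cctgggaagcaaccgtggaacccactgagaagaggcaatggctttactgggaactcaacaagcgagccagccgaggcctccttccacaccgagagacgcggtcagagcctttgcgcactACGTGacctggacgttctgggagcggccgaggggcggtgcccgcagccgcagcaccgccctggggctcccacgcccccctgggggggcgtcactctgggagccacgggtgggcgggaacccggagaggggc
Mdh1, chr11:21571935-21572184 (-): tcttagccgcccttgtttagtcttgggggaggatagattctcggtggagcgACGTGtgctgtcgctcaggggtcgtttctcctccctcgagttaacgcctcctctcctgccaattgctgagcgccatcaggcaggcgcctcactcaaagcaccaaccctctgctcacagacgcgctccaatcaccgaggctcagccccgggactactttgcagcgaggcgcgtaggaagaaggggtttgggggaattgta

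The palindrome CACGTG is an E-box that ChREBP, USF and other factors can bind. It stood 71 bases before the RefSeq start of Khk and 53 bases before the Pfkfb3 start within the gene. The window near the annotated 5′ end of Pfkfb3 held ACGTG, 60 bases before the start, and no full E-box. All of these sites lay inside the annotated genes. The E-box CACGTG was in 6 of the 54 windows of the 33 genes with a promoter in the table (11.1%), and in 6.02% of all 32851 windows. The 6 were of Khk, Ldha, Pcx, Pfkfb2, Pfkfb3 and Pfkm. The core ACGTG, which is part of CACGTG and also of the hypoxia response element, was in 19 of the 54 windows (35.2%) and in 16.6% of all. Pygl and Mdh1 held it without the full E-box, 131 and 199 bases before the start, and none of the 4 Pfkfb1 windows held it. The relaxed paired form of the carbohydrate response element and the FOXO site GTAAACA were in none of the 54 windows, with 0.28% and 3.17% of all windows holding them, and the strict form, a pair of full E-boxes, was in 0 of all windows. All motifs were searched on both strands. The cyclic AMP element TGACGTCA was in the window of Ldha alone among the 33 genes (1.55% of all windows), and TGACGTAA in none of theirs (0.447% of all). These windows are short, and a match is only a match of letters.

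Glucose transport did not pass. Slc2a2, which encodes GLUT2, the two-way transporter of hepatocytes, was at 111, 212 and 253 CPM in KO replicates 1 to 3 and at 192, 334 and 256 CPM in WT replicates 1 to 3, and the groups overlapped (log2 -0.44, SE 0.33, edgeR adjusted p = 0.440). Slc2a1, for the widely expressed GLUT1, was at 32.5 ± 7.77 CPM in KO and 22.9 ± 6.41 CPM in WT (SD, n = 3 each; log2 0.51, SE 0.25, edgeR adjusted p = 0.244).

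At the hexokinase step, which traps glucose as glucose-6-phosphate, neither of the 2 genes passed. Hk1 was at 12.1, 10.8 and 8.06 CPM in KO and at 18, 6.80 and 10.4 CPM in WT. Hk2 was at 8.41, 6.87 and 7.63 CPM in KO and at 11.2, 2.15 and 5.98 CPM in WT. In both, WT replicate 1 was the highest and WT replicate 2 the lowest of all 6 libraries, so the whole KO group lay inside the WT spread. The log2 fold changes were -0.19 (SE 0.35) and 0.24 (SE 0.50), with edgeR adjusted p of 0.770 and 0.800. Leaving out WT replicate 1 gave 0.27 for Hk1 and 0.91 for Hk2, and leaving out WT replicate 2 gave -0.46 and -0.17, so the signs depended on these libraries.

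Gpi1, the isomerase that links this step to phosphofructokinase, was at 227 ± 10.1 CPM in KO and 305 ± 47.9 CPM in WT (SD, n = 3 each; log2 -0.43, SE 0.15, edgeR adjusted p = 0.134). Phosphofructokinase commits sugar to glycolysis and is a tetramer of liver (Pfkl), muscle (Pfkm) and platelet (Pfkp) subunits. Pfkl was at 46.6, 59.5 and 47.0 CPM in KO and at 71.4, 49.1 and 49.5 CPM in WT (log2 -0.15, SE 0.18, edgeR adjusted p = 0.645). Pfkm was at 9.0, 9.03 and 10.2 CPM in KO and at 12.9, 20.6 and 15.1 CPM in WT, and each KO library lay below each WT library. It was 1.72-fold lower and narrowly missed the threshold (log2 -0.78, SE 0.19, edgeR adjusted p = 0.0548), which it passed with DESeq2 (0.00808), with no filter on low counts (0.0493) and without WT replicate 1 (0.0354). Pfkp was at 11.9 ± 1.59 CPM in KO and 9.53 ± 6.63 CPM in WT (SD, n = 3 each; log2 0.31, SE 0.50, edgeR adjusted p = 0.732). Leaving out WT replicate 2 turned its sign (-0.10). Per length, Pfkl made up 67.2% ± 4.19 of the 3 subunits' sum in KO and 60.0% ± 7.21 in WT, and Pfkm 24.9% ± 2.91 and 35% ± 10.2 (SD, n = 3 each).

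Below phosphofructokinase none of the 8 genes passed, with log2 fold changes between -0.31 and 0.57. Gapdh, whose enzyme makes NADH from glyceraldehyde-3-phosphate and whose mRNA often serves as a reference, was at 974, 1067 and 977 CPM in KO and at 1258, 1193 and 1292 CPM in WT. Each KO library was lower (log2 -0.31, SE 0.16, edgeR adjusted p = 0.254), and DESeq2 called it (adjusted p = 0.0362). Tpi1, triose phosphate isomerase, was also lower in each KO library without passing, at 463 ± 28.5 CPM against 562 ± 42.0 CPM (SD, n = 3 each; log2 -0.28, SE 0.14, edgeR adjusted p = 0.268), and DESeq2 did not call it (adjusted p = 0.129). Ldha, the lactate dehydrogenase subunit, was on the other side, at 1166, 1189.7 and 1354 CPM in KO and at 1060.3, 999 and 854 CPM in WT, with the groups apart but the difference short of the threshold (log2 0.35, SE 0.17, edgeR adjusted p = 0.246). Per length its rank among the 33 genes was 4 in WT and 1 in KO. Pgk1 (log2 -0.18, SE 0.13) and Pgam1 (log2 -0.10, SE 0.11) were close to level, with the groups overlapping, and both turned positive with library size only, as did Pfkl, Hk1, Pcx and Tkt. Aldoa, aldolase A, was at 234 ± 16.2 CPM in KO and 189.8 ± 47.7 CPM in WT (SD, n = 3 each; log2 0.30, SE 0.20, edgeR adjusted p = 0.383).

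Pkm, the pyruvate kinase of most tissues other than liver, was at 139.6, 109.6 and 90.1 CPM in KO and at 219, 54.6 and 148 CPM in WT. Like Hk1, Hk2 and Pfkp it was highest in WT replicate 1 and lowest in WT replicate 2, and it did not pass (log2 -0.31, SE 0.45, edgeR adjusted p = 0.700). Leaving out WT replicate 1 turned its sign (0.16). The sum of the macrophage markers was also highest in WT replicate 1 (2379 CPM) and lowest in WT replicate 2 (999 CPM) within WT. It was higher than either in the 3 KO libraries, whose Pkm lay between those 2 WT libraries. Gene by gene, 7 of the 10 markers were higher in each KO library than in each WT library, beside 16.9% of all tested genes. Adgre1, Csf1r and Lyz2 overlapped. Of all 6 libraries, Adgre1 (129 CPM) and Lyz2 (763 CPM) were highest in WT replicate 1 and lowest in WT replicate 2. The part of macrophages in the Pkm values was not tested. Pklr, the liver pyruvate kinase, was at 96.2, 74.7 and 75.7 CPM in KO and at 221, 237 and 229 CPM in WT, 2.78-fold lower (log2 -1.48, SE 0.14, edgeR adjusted p = 0.00421).

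Eno1 was the lowest of the 34 genes, at 31, 53 and 42 counts in KO and 19, 13 and 32 counts in WT, although it encodes the enolase of most cells. Of its 50-base words 26.0% also occur in another gene's transcripts, and 85.2% of those of Eno1b, a near-identical copy, which was at 3 to 8 counts. Eno3 was also at only 30 to 89 counts, so the enolase step as counted here is low in all libraries and its level is uncertain. The authors' treatment of reads that match several genes is not given in the sources used here. The shared part was 20% or more in 5 of the 34 genes (Pgk1 at 53.9%, Pgam1 at 36.2%, Eno1, Pkm at 25.8% and Gapdh at 25.1%), under 5% in 21 and none in 11.

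Comparing a pair of genes within a library avoids the choice of scaling. The pairs were forms of the same step or opposed enzymes. The log2 ratio of Pkm to Pklr was 0.54, 0.55 and 0.25 in KO replicates 1 to 3 and -0.02, -2.11 and -0.63 in WT replicates 1 to 3, so Pkm counts exceeded those of Pklr in each KO library and in no WT library. The mean was 0.45 ± 0.17 in KO and -0.92 ± 1.08 in WT (SD, n = 3 each), a difference of 1.37 (exact two-sided permutation p = 0.1, the smallest that 3 against 3 can give, and 0.233 when adjusted over the 7 ratios computed, of which 5 are given here). Of the pair, Pklr was called with edgeR and Pkm was not. Without WT replicate 2, the difference for Pkm to Pklr was 0.77 in place of 1.37. The other 4 ratios overlapped between the genotypes: Slc2a1 to Slc2a2 was 1.01 higher in KO (exact permutation p = 0.3), Pfkp to Pfkl 0.73 (p = 0.2), Gys2 to Pygl 0.48 (p = 0.5) and Pfkl to Fbp1 0.14 (p = 0.6). Per length, Pkm made up 46.9% ± 2.93 of the pyruvate kinase sum in KO and 27.2% ± 13.2 in WT, and the sum itself was 48 ± 8.52 CPM per kb in KO and 98.8 ± 14.1 in WT (SD, n = 3 each).

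**Figure D4:**
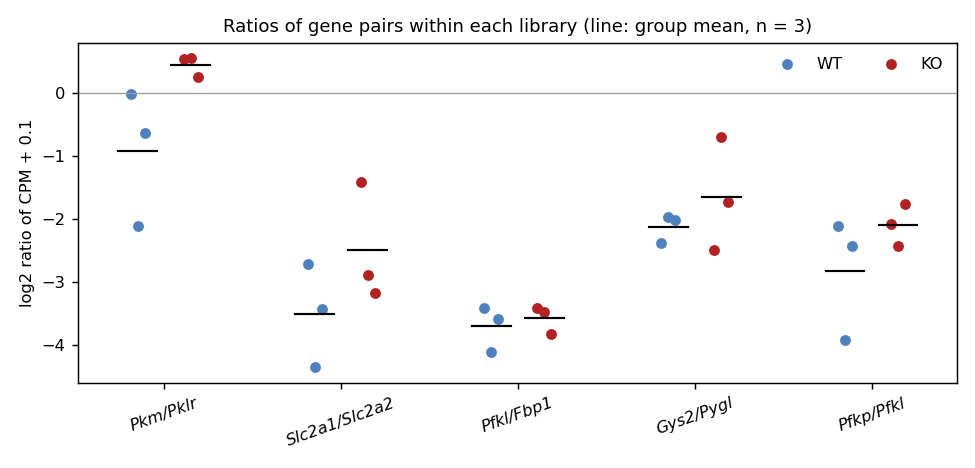
Log2 ratio of 2 genes within each library (vertical axis, CPM + 0.1), 1 point per library, with a line at each group mean (n = 3). For Pkm/Pklr the KO points (red) lie above the WT points (blue), and for the other 4 pairs they overlap.

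In gluconeogenesis Mdh1 alone passed of 5 genes, all 5 with negative values. Pcx, pyruvate carboxylase, the first step, was at 388, 608 and 658 CPM in KO and at 578, 572 and 543 CPM in WT (log2 -0.03, SE 0.22, edgeR adjusted p = 0.939). Fbp1, fructose bisphosphatase, which per length was the most abundant of the 33 genes in WT, was at 497, 669 and 668 CPM in KO and at 763, 855 and 599 CPM in WT (log2 -0.27, SE 0.20, edgeR adjusted p = 0.439). G6pc, the catalytic subunit of glucose-6-phosphatase, which releases glucose, was at 52.5, 135 and 134 CPM in KO and at 125, 144 and 134 CPM in WT. Slc37a4, the transporter that feeds it glucose-6-phosphate, was at 97.9, 193 and 231 CPM in KO and at 196, 277 and 205 CPM in WT. In all 4 of these genes KO replicate 1 was the lowest of the 6 libraries and the other 2 KO libraries were well above it. For G6pc and Slc37a4 the groups overlapped, and for Pcx those 2 KO libraries lay above the WT libraries. Neither G6pc (log2 -0.33, SE 0.33, edgeR adjusted p = 0.581) nor Slc37a4 (log2 -0.38, SE 0.31, edgeR adjusted p = 0.487) passed, and without KO replicate 1 the log2 fold change of G6pc was 0.010 and that of Pcx 0.17. KO replicate 1 was also the lowest library for Slc2a2 and Gys2. Pck1, the cytosolic phosphoenolpyruvate carboxykinase, named after its values were seen, was at 587 CPM in KO replicate 1 against 2597 and 2436 CPM in the other 2 KO libraries and between 2693 and 2726 CPM in WT.

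**Figure D5:**
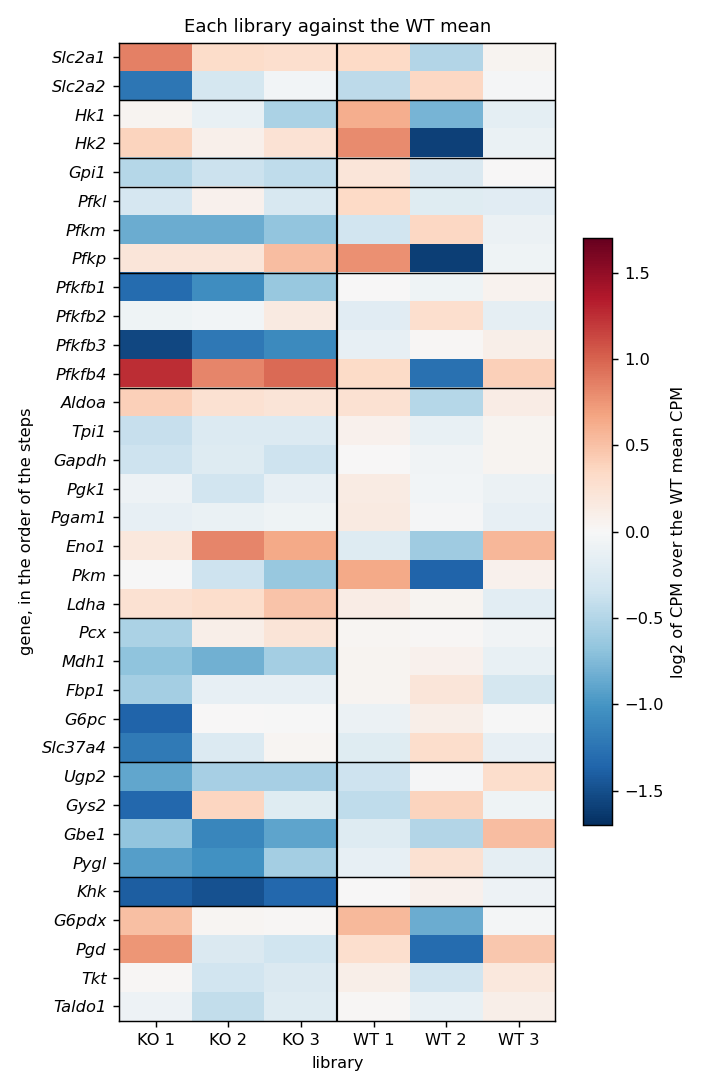
Log2 of each library's CPM over the WT mean (colour, from blue for low to red for high) for the 34 genes in the order of the steps (rows) and the 6 libraries (columns). Khk, Pfkfb1 and Pfkfb3 are blue in each KO column, while G6pc, Slc37a4, Slc2a2 and Gys2 are darkest in KO 1, and Hk2, Pfkp, Pkm and Pgd are darkest in WT 2.

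All 4 genes of glycogen turnover had negative values, and Pygl passed. Ugp2, which makes UDP-glucose, was at 344 ± 41.7 CPM in KO and 545 ± 122 CPM in WT (SD, n = 3 each; log2 -0.66, SE 0.20, edgeR adjusted p = 0.0934). Gbe1, the branching enzyme, was at 114 ± 17.3 CPM in KO and 209.7 ± 80.2 CPM in WT (SD, n = 3 each; log2 -0.88, SE 0.27, edgeR adjusted p = 0.0946), with WT replicate 3 at 301 CPM, and passed without WT replicate 2 (0.0369). In both the groups did not overlap, and DESeq2 called them (adjusted p of 0.0162 and 0.0182). Gys2, liver glycogen synthase, was at 53.7, 175 and 117 CPM in KO and at 101, 177 and 129 CPM in WT, with wide overlap (log2 -0.23, SE 0.41, edgeR adjusted p = 0.759), and its sign turned without KO replicate 1 (0.12) or WT replicate 2 (0.0098). Per length, Pygl made up 96.8% ± 1.13 of the 3 phosphorylase genes' sum in WT and 89.6% ± 2.80 in KO, and Pygb, the brain form, 2.87% ± 1.06 and 9.46% ± 2.44 (SD, n = 3 each).

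None of the 4 pentose phosphate genes passed. G6pdx, glucose-6-phosphate dehydrogenase, the entry of the NADPH-making branch, was at 28.8, 20.6 and 20.4 CPM in KO and at 29.6, 11.2 and 19.7 CPM in WT (log2 0.20, SE 0.34, edgeR adjusted p = 0.742). Pgd, the next dehydrogenase, was at 190.2, 95.6 and 89.5 CPM in KO and at 139, 45.8 and 156 CPM in WT (log2 0.14, SE 0.48, edgeR adjusted p = 0.882). The spread within each genotype was as wide as the difference in both, and without WT replicate 2 both were negative (-0.086 and -0.24), as was Pgd without KO replicate 1 (-0.29). Tkt, transketolase of the branch without oxidation, was at 200, 157 and 167 CPM in KO and at 212, 157 and 223 CPM in WT (log2 -0.18, SE 0.17, edgeR adjusted p = 0.564). Taldo1, transaldolase, was at 136 ± 15.1 CPM in KO and 159.7 ± 13.1 CPM in WT (SD, n = 3 each; log2 -0.24, SE 0.13, edgeR adjusted p = 0.307).

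Around these genes, 97 of 109 listed genes of the same pathways had enough counts to be tested. Of the 97, 5 rose and 6 fell, beside 3.36% of all tested genes called higher and 3.58% called lower. The same shares are the background of each list below. At an unadjusted edgeR p under 0.05, 1614 of the 12945 tested genes were higher and 1720 lower. The median log2 fold change of the 97 was -0.19, against 0.00 over all tested genes. For the 97, leaving out 1 library gave between 0 (KO replicate 3) and 2 higher (WT replicate 1 or 2), and between 2 (KO replicate 2) and 7 lower (WT replicate 1 or 2). In fructose metabolism Tkfc, the triokinase that acts downstream of ketohexokinase, was at 361, 343 and 323 CPM in KO and at 669, 519.8 and 662 CPM in WT, 1.80-fold lower (log2 -0.85, SE 0.16, edgeR adjusted p = 0.0264). It was the 1 gene called of 8 in the list of fructose, polyol and galactose genes, 7 of which had negative values. Tkfc missed the threshold with library size only (0.0783) and in 5 of the 6 leave-one-out fits (up to 0.123). Ldhd, the D-lactate dehydrogenase, was at 64.5 ± 2.87 CPM in KO and 168 ± 18.1 CPM in WT (SD, n = 3 each). Its log2 fold change was -1.38 (SE 0.13, edgeR adjusted p = 0.00421), which held without each library, but 40.2% of its 50-base words lie in the overlapping Znrf1 on the other strand, and the strand setting is not given in the sources used here. For Pklr, which also passed without each library, 20.5% are shared with its neighbour Hcn3.

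Among the genes of pyruvate dehydrogenase and its regulators, 2 of 11 fell and none rose with edgeR (5 lower and 1 higher at an unadjusted p under 0.05). Pdk1, a kinase that switches pyruvate dehydrogenase off, was at 22.1, 35.5 and 35.4 CPM in KO and at 74.9, 73.4 and 65.8 CPM in WT, 2.30-fold lower (log2 -1.20, SE 0.19, edgeR adjusted p = 0.0167), but did not pass when KO replicate 2 or WT replicate 3 was left out (up to 0.0633). Pdhb, the beta subunit of the dehydrogenase itself, fell 1.57-fold (log2 -0.65, SE 0.12, edgeR adjusted p = 0.0249), and missed it with library size only (0.0864) and in 4 of the 6 leave-one-out fits (up to 0.111).

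Of the other genes around gluconeogenesis 3 of 14 rose and none fell (3 higher and 0 lower at an unadjusted p under 0.05). Pck2, the mitochondrial phosphoenolpyruvate carboxykinase, was at 28.1, 28.1 and 28.4 CPM in KO and at 10.6, 5.75 and 15.6 CPM in WT, 2.64-fold higher (log2 1.40, SE 0.32, edgeR adjusted p = 0.046). Gpt2, an alanine transaminase, which makes pyruvate from alanine, was 1.99-fold higher (log2 0.99, SE 0.23, edgeR adjusted p = 0.0469). Slc16a1, the lactate and pyruvate transporter MCT1, was 1.86-fold higher (log2 0.89, SE 0.15, edgeR adjusted p = 0.0200). Pck2 passed in 2 of the 6 fits without 1 library, Gpt2 in 1 and Slc16a1 in 3, with adjusted p of up to 0.146, 0.167 and 0.0715. In glycogen turnover 2 of 23 rose and none fell (4 lower at an unadjusted p under 0.05): Pygb, from 11.7 ± 3.18 to 23.5 ± 3.85 CPM (SD, n = 3 each; log2 1.01, SE 0.22, edgeR adjusted p = 0.0402), and the row named Pgm1, a phosphoglucomutase, from 8.81 ± 1.77 to 16.3 ± 2.72 CPM (log2 0.89, SE 0.20, edgeR adjusted p = 0.0437). The symbols Pgm1 and Pgm2 are each listed by RefSeq as an older name of the other gene, so which of the pair that row counts is uncertain. Pygb passed in 1 of the 6 fits without 1 library and Pgm1 in 0, with adjusted p of up to 0.138 and 0.145.

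Among 15 transcription factors of glucose metabolism 1 passed, beside 6.94% of all tested genes called either way. Of the 15, 14 had negative values, with a median log2 fold change of -0.20. In 10 of the 15 the groups overlapped, and in 5 each KO library lay below each WT library. Over all tested genes the groups did not overlap in 33.5%, and KO lay below WT in 16.6%. Srebf1, which drives glycolytic and lipogenic genes after feeding, was at 373, 297 and 351 CPM in KO and at 814, 762 and 472 CPM in WT, 2.01-fold lower (SE 0.23 on the log2 scale, edgeR adjusted p = 0.0465). It missed the threshold with library size only (0.0657), with upper-quartile factors (0.0525) and in 5 of the 6 leave-one-out fits (up to 0.175). Mlxipl, which encodes ChREBP, the glucose-sensing factor of the carbohydrate response element, named after its values were seen, was at 42.7 CPM in KO and 82.4 CPM in WT on average (log2 -0.95, edgeR adjusted p = 0.051). No gene of the other lists passed with edgeR: 0 of 8 further pentose phosphate genes and 0 of 5 further glucose transporters, with 1 and 0 at an unadjusted p under 0.05.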

How the data were processed

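Total RNA of snap-frozen liver, 6 samples in all, went into an Illumina TruSeq RNA kit, per the labels. The values deposited by the authors are raw counts (whole numbers, not normalized), by gene symbol and library, per the file headers. Tools in the submitters' processing notes are Subread 1.5.3 with featureCounts, STAR 2.5 and edgeR 3.20.8, and the build is mm10. Not given in the sources used here are the role of each, the annotation, and how multi-mapping reads and strand were handled. Libraries were grouped by genotype and numbered in accession order. Counts of replicate libraries differed beyond sampling noise in each pair (chi-square per degree of freedom 21.5 or more).

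All 12945 genes that passed filterByExpr (minimum count 10, minimum total count 15) entered 1 fit in edgeR 4.0.16 (R 4.3.3): TMM factors, glmQLFit with robust dispersion, a quasi-likelihood F-test for KO over WT, Benjamini-Hochberg adjustment over all genes, threshold 0.05. SE was taken as the absolute log2 fold change over the square root of F. Scripts were tested on simulated data. Ratios used CPM + 0.1 and an exact permutation test (scipy 1.17.1). The tests were repeated with DESeq2 1.42.0 and limma-voom (limma 3.58.1), with other scaling (upper-quartile, RLE, library size only), with no filter or 1 CPM in 3 libraries, without robust dispersion, with a pseudocount of 1 and without each library.

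Positions and union exon lengths came from GENCODE M21, in which 33 of the 34 symbols matched 1 gene (Aldoa matched 2 and has no level per length). Promoters came from RefSeq, with 33 of the 34 matched. CPM was computed here. The 34 genes, the lists and the tests were chosen with earlier results of these data known. Named were, by rule, all 34 genes (with each library's CPM for called genes and a list of genes at controlled steps), the called genes of the wider pathway lists, the partners in ratios and Sesn3. A few items under that rule are not reported here. Eno1b, Eno3, Pck1, Mlxipl and the single markers Apoa1, Ttr, Adgre1, Csf1r and Lyz2 were named after their values were seen. Pfkfb4, Gapdh, Ldha and Pgd were given by library after their values were seen.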

Additional observations from a re-analysis of the deposited data

How the results depend on the processing

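The count of the 34 genes called lower was 5, and went to 3 with library size only and 9 with DESeq2, and to between 1 and 4 without 1 library. Over all genes, library size only gave 707 higher and 258 lower and DESeq2 921 and 1061, and leaving out 1 library gave between 48 and 504 higher and between 53 and 475 lower. For the wider pathway lists, library size only gave 3 lower and DESeq2 17, and leaving out 1 library gave 0 to 2 higher and 2 to 7 lower. The sign of 6 genes that were not called turned with library size only: Hk1 to 0.017, Pfkl to 0.057, Pgk1 to 0.031, Pgam1 to 0.11, Pcx to 0.16 (0.016 with upper-quartile factors) and Tkt to 0.029. In the same fit the median of all tested genes moved up by 0.21. Why the scaling factors differ between libraries was not tested. Leaving out 1 library moved the log2 fold change of genes that were not called across 0: Hk1 from -0.46 to 0.27, Hk2 from -0.17 to 0.91, Pfkl from -0.27 to 0.061, Pfkp from -0.10 to 0.96, Pfkfb2 from -0.057 to 0.19, Pkm from -0.70 to 0.16, Pcx from -0.18 to 0.17, G6pc from -0.53 to 0.010, Gys2 from -0.67 to 0.12, G6pdx from -0.086 to 0.59 and Pgd from -0.29 to 0.44, and the log2 ratio of Pfkl to Fbp1 from -0.069 to 0.28. No paired analysis was possible because the labels number no replicates. Eno1, at 13 to 53 counts, and Pfkfb4, at 17 to 134, have the least depth of the 34.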
